A study of Mus musculus with 2 samples.

Results

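Clathrin, adaptor and endocytosis genes were examined in N2A cells, a mouse neuroblastoma line, after knockdown of Ptbp1. The set held 10 genes listed by name for their known neural exons: the clathrin light chains Clta and Cltb, the AP-2 subunit Ap2a1, the assembly proteins Picalm and Snap91, the epsins Epn1 and Epn2, the scaffold Itsn1, and the dynamins Dnm1 and Dnm2. RNA-seq was available for 2 libraries: the control library, made after transfection of a control shRNA (shControl), and the knockdown library, made after transfection of an shRNA that targets Ptbp1 (shptbp1). Both came from the same line, were incubated with the DNA and lipid complexes for 5 hours, and were cultured for 3 days before the RNA was collected. Each condition had 1 library, so differences could not be checked against replicates, and p-values are left out. For the same reason the intervals of junction reads cover counting error only and leave out spread between cultures. They may be too narrow even for counting error, because reads amplified by PCR are not independent molecules. The share of cells that took up the shRNA was not measured here, so each library may mix cells with and without it.

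Exon inclusion was read from SpliceTrap, which estimates for each trio of neighbouring exons the percent of transcripts that include the middle one (PSI, percent spliced in). The 10 genes had 288 trios, of which 286 had 20 reads or more in each library. These gave 212 events, an event being a middle exon in 1 class of the exon database, of 121475 events in all genes, and they covered 209 distinct exons. The events described singly were chosen by their PSI and delta PSI (knockdown minus control) in these same libraries, so their values are a description.

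In clathrin-mediated endocytosis, triskelia of heavy and light chains assemble into a lattice on the cytoplasmic face of the plasma membrane. The AP-2 complex couples the lattice to membrane lipid and cargo, and Picalm and Snap91 (AP180) bind lipid and clathrin and promote assembly. Epsins bend the membrane and bind ubiquitinated cargo, intersectin is a scaffold with many SH3 domains, and dynamins are GTPases that sever the neck of the vesicle. Neurons use the same machinery to retrieve synaptic vesicle membrane and express forms of several of these proteins that carry extra residues encoded by alternative exons. PTBP1 is a splicing repressor that binds pyrimidine-rich RNA near many neural exons, and its loss in developing neurons accompanies the inclusion of such exons.

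The exons on which the comparison turned are printed here with the 100 intronic bases that precede them, because PTBP1 is known to bind such tracts. Shown are 6 exons of Clta, Cltb, Ap2a1, Dnm1 and Snap91 with higher inclusion after knockdown, then, for contrast, the third 84 nt exon of Snap91 and the 75 nt exon of Epn1, which had lower inclusion, and the exons of Dnm2 and Picalm that moved by less than 5 points. The sequences are those of the NCBIM37 (mm9) reference, read 5′ to 3′ on the transcript strand, with intron in lower case and exon in CAPITALS. In the GENCODE annotation each of these exons lies inside coding sequence. Snap91 has 3 such exons of 84 nt, counted here in transcript order.
Clta 54 nt exon, chr4:44042987-44043140, plus strand: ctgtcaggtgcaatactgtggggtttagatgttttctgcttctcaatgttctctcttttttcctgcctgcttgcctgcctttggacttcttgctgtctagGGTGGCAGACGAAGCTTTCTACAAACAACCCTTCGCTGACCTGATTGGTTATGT
Clta 36 nt exon, chr4:44044172-44044307, plus strand: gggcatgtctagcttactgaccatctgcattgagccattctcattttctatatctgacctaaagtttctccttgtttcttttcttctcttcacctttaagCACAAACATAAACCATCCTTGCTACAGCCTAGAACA
Cltb 54 nt exon, chr13:54698387-54698540, minus strand: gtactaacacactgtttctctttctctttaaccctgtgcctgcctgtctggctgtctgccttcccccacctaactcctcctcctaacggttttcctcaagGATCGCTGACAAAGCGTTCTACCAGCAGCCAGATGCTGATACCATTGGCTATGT
Ap2a1 66 nt exon, chr7:52158832-52158997, minus strand: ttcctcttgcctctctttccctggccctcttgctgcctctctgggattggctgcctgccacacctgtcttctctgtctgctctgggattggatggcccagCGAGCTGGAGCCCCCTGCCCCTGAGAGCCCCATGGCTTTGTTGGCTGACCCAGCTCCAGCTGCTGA
Dnm1 12 nt exon, chr2:32178699-32178810, minus strand: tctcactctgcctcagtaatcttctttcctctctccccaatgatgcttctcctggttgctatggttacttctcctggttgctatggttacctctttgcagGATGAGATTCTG
Dnm2 12 nt exon, chr9:21295002-21295113, plus strand: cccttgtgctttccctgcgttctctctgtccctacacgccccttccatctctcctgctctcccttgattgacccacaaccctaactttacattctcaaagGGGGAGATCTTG
Snap91 the second 84 nt exon, chr9:86684889-86685072, minus strand: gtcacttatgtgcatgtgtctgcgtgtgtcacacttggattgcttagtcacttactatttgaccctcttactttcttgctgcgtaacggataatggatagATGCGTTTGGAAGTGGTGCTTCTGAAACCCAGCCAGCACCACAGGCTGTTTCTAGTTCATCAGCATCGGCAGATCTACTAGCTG
Snap91 the third 84 nt exon, chr9:86669031-86669214, minus strand: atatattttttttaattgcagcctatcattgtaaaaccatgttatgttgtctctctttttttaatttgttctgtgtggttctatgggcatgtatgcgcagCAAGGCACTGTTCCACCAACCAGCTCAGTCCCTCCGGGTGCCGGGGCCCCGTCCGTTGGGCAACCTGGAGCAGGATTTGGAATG
Epn1 75 nt exon, chr7:5044814-5044988, plus strand: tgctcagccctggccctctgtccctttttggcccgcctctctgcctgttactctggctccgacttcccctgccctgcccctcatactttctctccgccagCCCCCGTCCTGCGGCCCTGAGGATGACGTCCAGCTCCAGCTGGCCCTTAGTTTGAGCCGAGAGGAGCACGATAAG
Picalm 24 nt exon, chr7:97342683-97342806, plus strand: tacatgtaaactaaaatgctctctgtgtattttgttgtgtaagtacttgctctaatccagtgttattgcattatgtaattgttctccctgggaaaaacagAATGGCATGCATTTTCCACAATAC

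The upstream windows of the light chain and Ap2a1 exons were rich in C and T. Over 115006 cassette and constitutive events of all genes the median share of pyrimidines in the 100 intronic bases was 55%, with quartiles of 51% and 60%. The share was 68% before the 54 nt exon of Clta, 69% before its 36 nt exon, 73% before the 54 nt exon of Cltb and 71% before the 66 nt exon of Ap2a1. These lie above 95.1%, 96.1%, 98.5% and 97.6% of all windows. Pyrimidine content did not separate exons with higher inclusion from the rest: the windows of the 75 nt exon of Epn1 (77%) and the 12 nt exon of Dnm2 (75%) held still more, and those of the second and the third 84 nt exons of Snap91 held 59% and 62%.

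The letters TCTT, TTCT and CTCTCT were searched on the transcript strand of the same windows, where TCTT and TTCT can overlap each other. TCTT occurred 4 times before the Ap2a1 exon, and TTCT occurred 6 times before the 36 nt exon and 4 times before the 54 nt exon of Clta. In all windows, 63.9% held TCTT at least once, 67.2% held TTCT and 9.76% held CTCTCT, so single matches are common. Of 22 named exons 40.9% had CTCTCT in the window. CTCTCT was present before exons with higher inclusion, 2 times for Ap2a1 and once for the 54 nt exon of Clta and the 12 nt exon of Dnm1. It occurred 2 times before the 135 nt form of Snap91, whose higher PSI came from coverage alone, with no skipping read. It was as well present once before exons that were lower or moved by less than 5 points, the 75 nt exon of Epn1, the third 84 nt exon of Snap91, the 12 nt exon of Dnm2, the 24 nt exon of Picalm and the 73 nt exon of Epn2. CTCTCT was not found in the window of the Cltb exon, and no more than the absence of these letters follows from that.

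The 54 nt exons of Clta and Cltb had 37 identical bases, or 68.5%, when set side by side without gaps. The 12 nt exons of Dnm1 and Dnm2 had 8 identical bases, or 66.7%. The second and the third 84 nt exons of Snap91, by contrast, shared 20 bases, or 23.8%, so that these exons are alike in length and not in sequence.

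The control library held 74382387 reads on distinct junctions of the exon database and the knockdown library 58295142. The trio of a member event carried a median of 1035 reads with control shRNA and 892 after knockdown. In coverage times length per 1000000 of the library total (ppm), Ptbp1 itself, the target of the shRNA, was at 438 ppm with control shRNA and 132 after knockdown, a log2 ratio of -1.73, and the reads on its constitutive junctions gave -1.56. Its homolog Ptbp2 was higher, with log2 ratios of 0.78 and 1.28 by the same measures. Of 10 markers of neurons and sympathetic neuroblastoma, 8 were at 1 ppm or more in both libraries, as was 1 of 4 glial markers, while none of 5 fibroblast, 3 blood and 3 muscle markers reached that level in both. The summed fibroblast markers were 0.852 ppm with control shRNA and 5.23 after knockdown, mostly Pdgfra (0.712 and 4.69), and their part in the results was not tested.

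Most member exons were spliced alike in both libraries, and the larger differences lay in the direction of inclusion. PSI was above 95 in both libraries for 169 of the 212 events and below 5 in both for 12, of which 3 were listed at exactly 0 with inclusion reads alone. It lay between 5 and 95 in at least 1 library for the other 31. PSI was higher by 5 points or more after knockdown in 15 events, 7.08% of the 212, against 2.72% of the 121475 events of all genes. It was lower by 5 points or more in 5 events, or 2.36%, against 2.68% of all events. The genes were listed for known neural exons and with earlier results of these data known. An excess over all genes is therefore not read as a result. By junction reads, 8 of 206 events were higher and 5 lower, and by the larger junction, a setting chosen after seeing the data, 9 were higher and 3 lower. Shares over all genes were not computed by junction reads, so whether the members differ from all events on that measure was not tested. Of the 15, 3 had no skipping read in either library. The other 192 events moved by less than 5 points in PSI, the median delta PSI was 0 for the member events as for all events, and the extremes were 59.2 and -14.6 points.

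Among the 25 events of the cassette class, in which the database holds transcripts with and without the exon, 8 were higher (32%) and 2 lower (8%). Over the 6565 cassette events of all genes these shares were 16.1% and 14.6%. The same limit, from how the genes were listed, applies here. Constitutive-class events, for which the database holds no skipping transcript, numbered 169, of which 6 were higher and 1 lower. The 3 higher events with no skipping read in either library were all of this class. Of 12 alternative acceptors 1 was higher and 1 lower, of 4 alternative donors 1 was lower, and neither of the 2 retained introns moved by 5 points. The 15 higher events were 14 distinct exons, since the 54 nt exon of Clta is held in both classes, with different flanking exons. Their length was a multiple of 3 in 11 of the 15 and in 4 of the 5 lower events, near the 18 of 25 among all member cassettes. Of the 15 higher and 5 lower events, 12 and 3, respectively, lay wholly in coding sequence. By class, shares over all genes were computed for cassettes alone. The counts of the other classes, of length and of coding position are therefore not read as results.

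**Figure D1:**
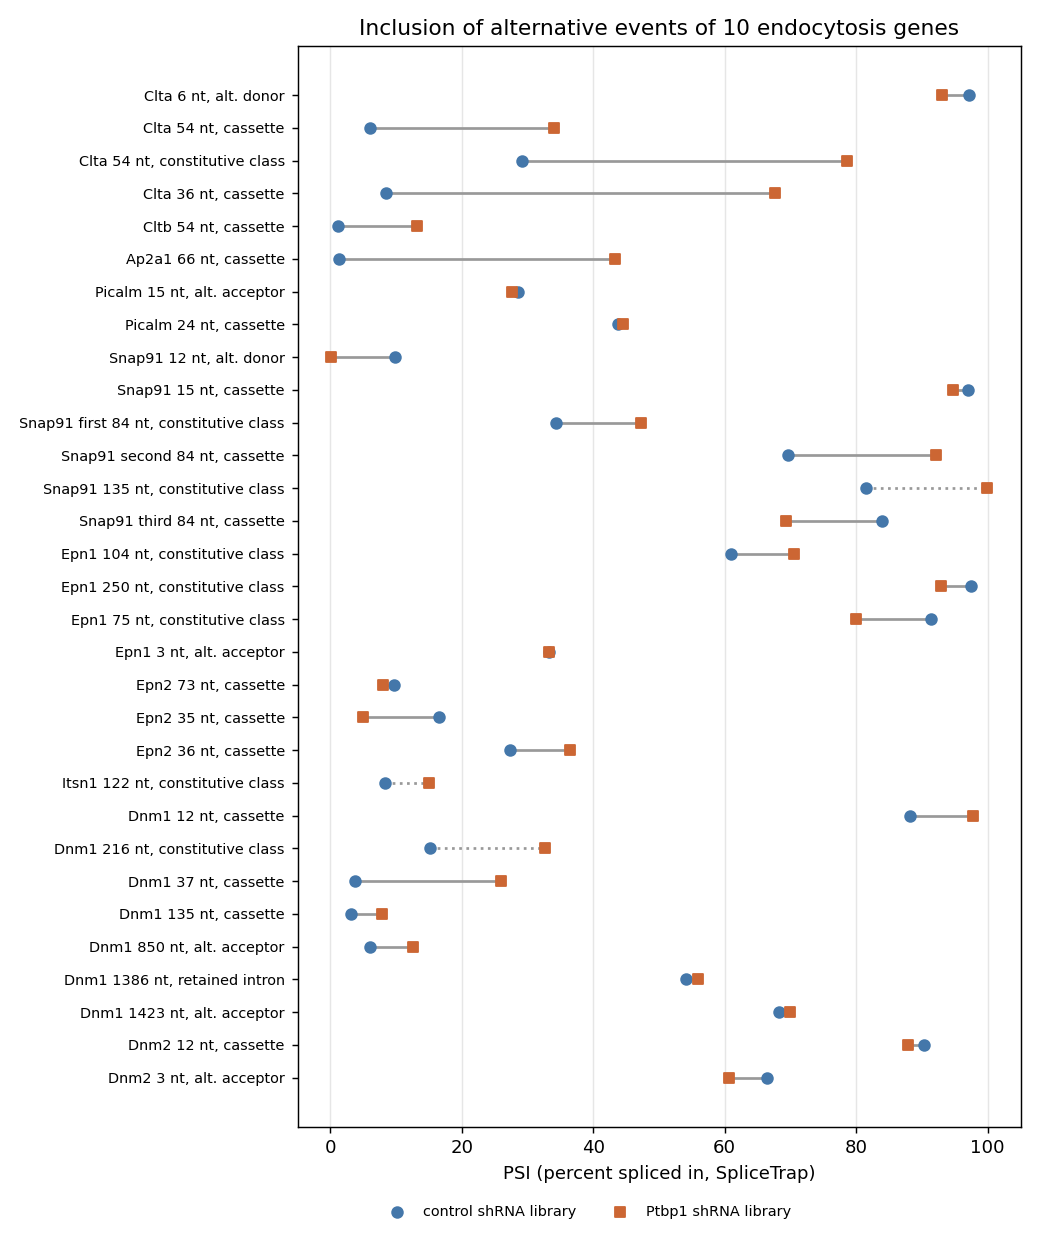
PSI of the 31 events with an estimate between 5 and 95 in at least 1 library, in the control shRNA library (circles) and the Ptbp1 shRNA library (squares), grouped by gene in the order of their roles and in transcript order within a gene. Dotted lines mark the 3 events with no skipping read in either library; the longest lines belong to Clta and Ap2a1, while the events of Picalm and Dnm2 stay close to their control values.

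Both clathrin light chains carried exons with higher inclusion after knockdown. In Clta, which encodes light chain a, these are adjacent exons of 54 and 36 nt before the last exon, at chr4:44043087-44043140 and chr4:44044272-44044307 on the plus strand. The PSI of the 54 nt exon was 6.0 with control shRNA and 34.0 after knockdown in the trio that joins it to the last exon. Its inclusion junctions had 141 and 91 reads with control shRNA against 2317 that skipped it, and 722 and 246 reads after knockdown against 1080. The mean of the inclusion junctions gave 4.77% (95% Wilson interval 3.99 to 5.69) and 30.9% (28.7 to 33.3), a difference of 26.2 points with a 95% Newcombe interval of 23.8 to 28.6. The intervals lie far apart.

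The 36 nt exon of Clta had the largest difference of any member event by PSI. By the larger inclusion junction the 66 nt exon of Ap2a1 moved more (40.9 points against 35.3). For the Clta exon, however, the larger junction was the right one with control shRNA (49 reads) and the left one after knockdown (569 reads). The right junction also takes in transcripts without the 54 nt exon, so this order depends on the junction used. The PSI of the 36 nt exon was 8.4 with control shRNA and 67.6 after knockdown. Its trio begins with the 54 nt exon and so describes mainly transcripts that already include that exon. Junction reads gave a smaller difference, 39.0 points with an interval of 29.9 to 46.9, from 28.0% with control shRNA, where only 20 and 49 reads supported inclusion and 90 skipping, to 67.0% after knockdown. In the constitutive-class trio that ends with the 36 nt exon, the 54 nt exon itself had a PSI of 29.2 and 78.6, but its junction difference was 14.5 points (6.53 to 23.3), with no read on the junction between both exons in that trio. Estimates for this pair of exons therefore depended on the trio, although every one was higher after knockdown.

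The choice of partner at single splice sites of Clta, a view selected after these values were seen, shows the order of joining. Reads on the same junction were counted separately in each trio, and the largest count was taken. From the exon before the pair, 9.98% of 2876 reads went to the 54 nt exon with control shRNA (interval 8.94 to 11.1) and 39.6% of 2269 after knockdown (37.6 to 41.6). The share that went straight to the last exon was 88.6% and 56.4%. A direct join to the 36 nt exon took 1.46% and 4.01%, and a flank of that length leaves little room for a read to align. From the 54 nt exon, 18% of 111 reads with control shRNA and 69.8% of 815 after knockdown went on to the 36 nt exon, a difference of 51.8 points (43.0 to 58.6). Of the reads that left the 54 nt exon, the larger part skipped the 36 nt exon with control shRNA and joined it after knockdown.

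**Figure D2:**
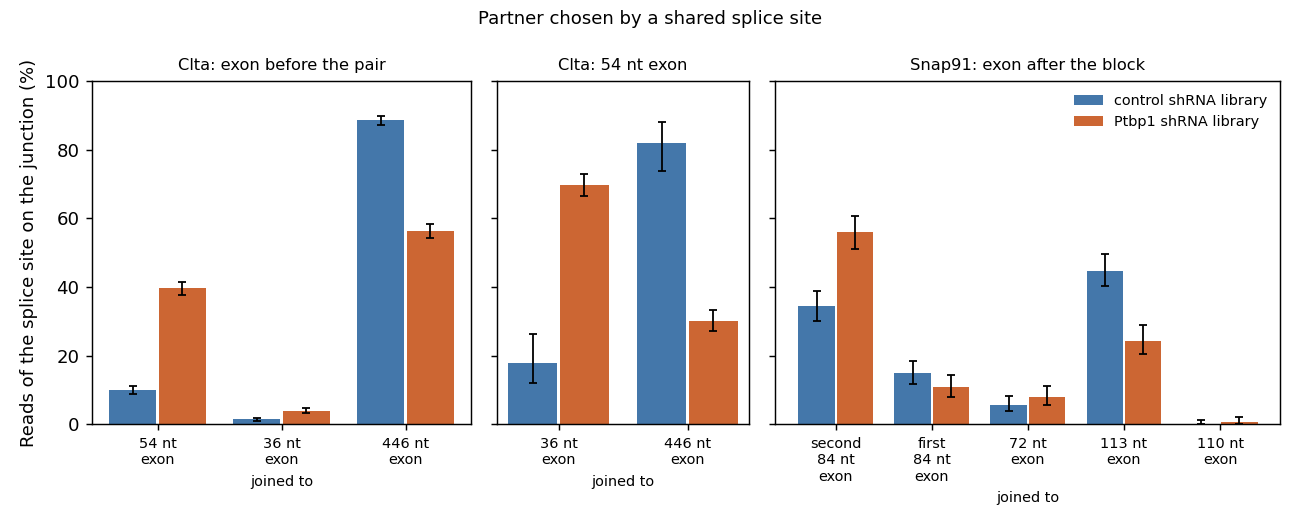
Percent of reads at a shared splice site that join it to each partner exon, with 95% Wilson intervals, in the control shRNA library and the Ptbp1 shRNA library. From the Clta exon before the pair the share joined to the 54 nt exon was 9.98% and 39.6%, and in Snap91 the share that skips from the 113 nt exon to the 135 nt exon was 44.8% and 24.4%.

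Clta also has an alternative donor that adds 6 nt to an upstream exon, with a PSI of 97.2 with control shRNA and 93.1 after knockdown, under the 5 points set as the threshold, with a junction interval of -12.7 to -1.14 points. Cltb encodes light chain b, and its 54 nt exon (chr13:54698387-54698440, minus strand) had a PSI of 1.1 and 13.2. The control library had 12 and 7 inclusion reads against 1153 that skipped the exon, and the knockdown library 173 and 92 against 1196. The junction difference was 9.15 points (7.49 to 10.9), with 0.86% inclusion with control shRNA and 10.0% after knockdown. By these reads, skipping remained the main form of Cltb after knockdown.

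Ap2a1 encodes a large alpha subunit of AP-2, the part of the complex that reaches membrane lipid and recruits accessory proteins. Its 66 nt exon (chr7:52158832-52158897, minus strand) was almost wholly skipped with control shRNA, with a PSI of 1.3, and had a PSI of 43.3 after knockdown. Inclusion rested on 2 and 4 reads against 275 with control shRNA, and on 112 and 149 against 203 after knockdown. By junction reads, inclusion was 1.08% (0.37 to 3.12) and 39.2% (34.1 to 44.6), a difference of 38.1 points (32.7 to 43.5). The exon was thus close to absent with control shRNA and held in a large part of the reads after knockdown. The other 23 events of Ap2a1 moved by less than 5 points, including an alternative acceptor of 53 nt whose PSI was 1.4 and 2.3.

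Picalm, the broadly expressed assembly protein, showed no event that moved by 5 points. Its 24 nt cassette exon (chr7:97342783-97342806, plus strand) had a PSI of 43.8 with control shRNA and 44.5 after knockdown. Its right junction had no read in either library, so the left junction alone was used. It gave 47.6% and 48.4%, a difference of 0.83 points with an interval of -4.44 to 6.11. This interval covers counting error of the left junction alone and sets no bound on differences between cultures. An alternative acceptor of 15 nt had a PSI of 28.5 and 27.6, with a junction interval of -3.54 to 3.47 points. The 150 nt cassette exon had 55 skipping reads with control shRNA and 15 after knockdown, and its PSI was 95.8 and 98.3. Junction reads of that exon gave a difference of 3.21 points (1.57 to 4.85), the 1 named change of Picalm whose interval lay off 0, below the threshold in size.

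Snap91, the assembly protein of neurons, had 3 events higher and 2 lower by 5 points. In transcript order, the first 84 nt exon (chr9:86686318-86686401, minus strand) had a PSI of 34.3 and 47.3, and the second (chr9:86684889-86684972) a PSI of 69.7 and 92.1. For the second, junction reads gave 84.6% and 93.6%, a difference of 9.01 points (2.31 to 16.7), smaller than by PSI. Its skipping junction had 20 reads with control shRNA and 13 after knockdown in that trio, but 66 and 43 as the largest count over trios. These junction values therefore depend on the trio. For the first, junction reads gave 61.5% and 61.9%, a difference of 0.37 points (-14.9 to 15.9), and the larger junction alone 5.35 points (-7.43 to 18.6). In its other trio, which ends with the second 84 nt exon, the first had a PSI of 99.7 and 99.1, so its higher PSI was not common to both trios. The acceptor of the 135 nt exon that follows (chr9:86678133-86678267) was joined to the second 84 nt exon in 34.4% of 442 reads with control shRNA and 55.9% of 397 after knockdown, a difference of 21.5 points (14.8 to 28.0). It was joined to the 113 nt exon in 44.8% and 24.4%. That junction passes over a block that holds both 84 nt exons and at least the 72 nt exon before them. An exon of 113 nt also flanks the 15 nt exon of Snap91. If it is the same exon, the block is longer and holds the 78, 79 and 15 nt exons too. The first 84 nt exon took 14.9% and 10.8%, with an interval of -8.61 to 0.477 points. Skipping of this block, which is longer than the pair of 84 nt exons, was thus less frequent after knockdown at this site. The site was chosen after the values were seen.

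The third 84 nt exon of Snap91 (chr9:86669031-86669114) went the other way. Its PSI was 83.9 with control shRNA and 69.3 after knockdown, with 83 skipping reads and 154. Inclusion by junction reads was 80.8% and 67.0%, a difference of -13.9 points (-19.5 to -8.16). The 15 nt exon (chr9:86693665-86693679) had a PSI of 97.0 and 94.8. The alternative donor of 12 nt was called lower, at 9.8 and 0.1, on 2 inclusion reads against 7 with control shRNA and none against 18 after knockdown, and its interval reached from -47.1 to 7.86 points. The other higher event, a different exon form of 135 nt (chr9:86676404-86676538), had no skipping read in either library, and its PSI of 81.5 and 99.9 came from coverage alone. Its right junction had 22 reads with control shRNA and 32 after knockdown, against 587 and 483 for the 150 nt form of the same exon. The 15 bases that the longer form adds lie inside the upstream window of the 135 nt form.

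Each epsin had 1 event higher and 1 lower. In Epn1, the 75 nt exon (chr7:5044914-5044988, plus strand) had a PSI of 91.4 with control shRNA and 80.0 after knockdown, with 22 and 50 skipping reads. Its junction difference was -13.5 points (-20.3 to -6.68). A non-coding 104 nt exon had a PSI of 61.0 and 70.5, with a junction interval of -6.35 to 13.6 points that takes in 0. A 250 nt exon was at 97.4 and 92.9, and an alternative acceptor of 3 nt was at 33.2 in both libraries. In Epn2, the 36 nt coding exon (chr11:61348080-61348115, minus strand) had a PSI of 27.3 and 36.4, with 56 and 23 inclusion reads against 171 with control shRNA and 51 and 28 against 111 after knockdown. The junction interval was -1.12 to 16.4 points. The 35 nt non-coding exon of Epn2 was lower, at 16.6 and 5.0, but on 13 inclusion reads against 30 and 2 against 21, with an interval of -30.1 to 5.29 points by the mean of both junctions. Its right junction had no read, and the left alone gave -21.5 points (-37.7 to -0.022). A 73 nt non-coding exon was at 9.7 and 8.0.

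Itsn1, the intersectin scaffold, had the most events, 45, and 1 of them passed the threshold. This was a coding exon of 122 nt with a PSI of 8.3 and 15.0 and no skipping read in either library, so that the estimate rests on coverage. By junction reads its inclusion was 100% in both libraries, so the low PSI is not read as skipping. Its inclusion junctions had 18 and 11 reads with control shRNA and 19 and 30 after knockdown. Those of the 192 nt exon before it had 587 and 606, then 479 and 499. The cause was not tested. The cassette exon of 15 nt had a PSI of 0.5 with control shRNA and 0.9 after knockdown, with 2 inclusion reads in each against 411 and 249 skipping reads. This short exon thus stayed out of nearly all Itsn1 transcripts in both libraries.

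By PSI alone the dynamins had events called in opposite directions, and the junction interval of the lower Dnm2 event took in 0. Dnm1, the neuronal dynamin, had 4 events higher and none lower, and Dnm2, the ubiquitous one, had 1 lower. The 12 nt exon of Dnm1 (chr2:32178699-32178710, minus strand) had a PSI of 88.2 and 97.8. The left junction had 248 reads against 32 skipping with control shRNA and 370 against 8 after knockdown, which gave 88.6% and 97.9%, a difference of 9.31 points (5.52 to 13.7). The exon of the same length in Dnm2 (chr9:21295102-21295113, plus strand) had a PSI of 90.3 and 87.9, and the larger of its junctions a difference of -3.09 points (-12.8 to 5.14). These intervals do not overlap, but the difference between the genes has no replicate behind it. The lower Dnm2 event, an alternative acceptor of 3 nt, had a PSI of 66.4 and 60.7 and an interval of -16.5 to 6.66 points by its larger junction.

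The other 3 higher events of Dnm1 lie at the 3′ end of the gene, where the 37 and 850 nt events overlap. A 37 nt cassette exon had a PSI of 3.8 and 25.9 with 0 and 2 inclusion reads against 9 with control shRNA and 20 and 6 against 17 after knockdown, and an interval of -1.01 to 52.6 points by the mean of both junctions and 2.45 to 55.7 by the larger. An alternative acceptor of 850 nt was at 6.1 and 12.6, and a 216 nt exon was at 15.2 and 32.7 with no skipping read in either library. The trios held 1342 to 3163 reads with control shRNA, so these estimates rest on coverage far more than on junctions. A 135 nt exon of the same region was at 3.2 and 7.8, a retained intron of 1386 nt at 54.1 and 56.0, and an acceptor of 1423 nt at 68.2 and 70.0, each below the threshold.

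**Figure D3:**
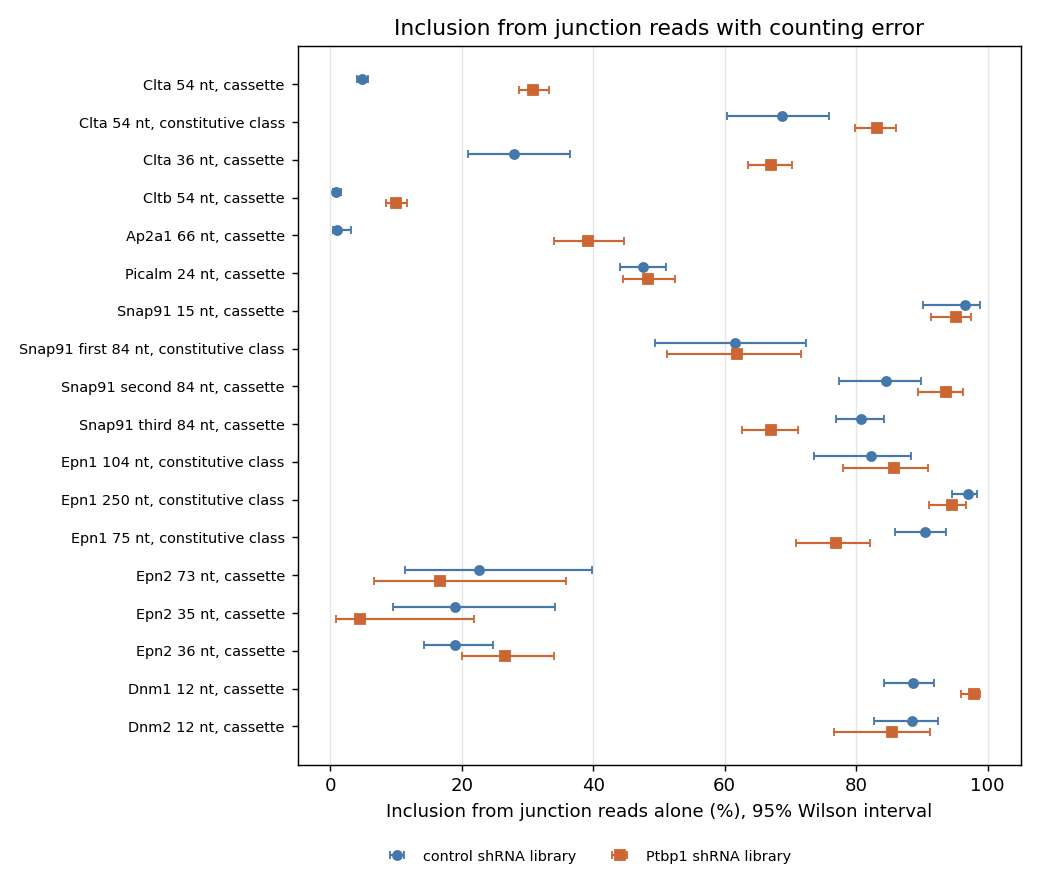
Inclusion computed from junction reads alone, with 95% Wilson intervals that cover counting error, for named cassette and constitutive-class events with 20 junction reads or more in each library and at least 1 skipping read. The mean of both inclusion junctions was used, and the larger for exons of 30 nt or less; the intervals of the libraries are apart for the Clta, Cltb and Ap2a1 exons and overlap for Picalm and Dnm2.

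Of the 15 higher events, 7 had a Newcombe interval of the junction difference (mean of both junctions) above 0: the 3 of Clta and those of Cltb, Ap2a1, the 12 nt exon of Dnm1 and the second 84 nt exon of Snap91. Of the 5 lower events, 2 had an interval below 0, the 75 nt exon of Epn1 and the third 84 nt exon of Snap91. In 3 of the higher events (Dnm1 216 nt, Itsn1 122 nt, Snap91 135 nt) no skipping read was found in either library. A PSI of exactly 0 in both libraries was listed for 3 further events, 1 of Picalm and 2 of Snap91, although they had 65 to 811 inclusion reads with control shRNA and no skipping read. Their 0 may be a failed estimate and is not read as skipping.

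Just inside the minimum of reads were constitutive exons of Itsn1, of 83 nt with 28 and 40 reads and of 107 nt with 37 and 64, with a PSI of 99.9 in both libraries. Just outside were 2 Snap91 events, a 5 nt exon with 10 and 12 reads and a PSI of 99.9 and an alternative donor of 4 nt with no read.

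Transcripts that Cufflinks assembled in each library, beside RefSeq ones, gave another view of the same reads. Of the depth of assembled Ap2a1 transcripts spanning the 66 nt exon, those with the exon were listed at 0 with control shRNA and made up 40.8% after knockdown. The shares for Clta were 0 and 55.2% for the 54 nt exon and 0 and 37.2% for the 36 nt exon. For Cltb they were 0 and 15.3%. For the 24 nt exon of Picalm they were 81.4% and 76.8%, and for the second 84 nt exon of Snap91 54.9% and 46.5%, a direction opposite to its PSI. The third 84 nt exon of Snap91 (63.3% and 100%) and the 36 nt exon of Epn2 (51.5% and 46.7%) went against their PSI too. The 12 nt exon of Dnm1 was listed at 0 in both libraries, against a PSI of 88.2 and 97.8. So was the 37 nt exon of Dnm1, against a PSI of 3.8 and 25.9. The 216 nt exon of Dnm1 was at 100% in both, against a PSI of 15.2 and 32.7. The 135 nt form of Snap91 was at 0 in both, against a PSI of 81.5 and 99.9. The 73 nt exon of Epn2 was at 0 and 40.2%, against a PSI of 9.7 and 8.0. At most 6 transcripts spanned each exon, so these shares are coarse.

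RNA levels of 9 of the 10 genes were within 1.5-fold between the libraries by RefSeq transcripts. In coverage times length of RefSeq transcripts, Clta was at 103 ppm with control shRNA and 114 after knockdown, Cltb at 40.4 and 34.7, and Ap2a1 at 122 and 99.3. Picalm was at 193 and 169 ppm, Snap91 at 21.3 and 52.2, Epn1 at 26.3 and 20.5, Epn2 at 22.1 and 18.9, Itsn1 at 99.0 and 89.3, Dnm1 at 28.0 and 39.5 and Dnm2 at 15.8 and 11.4. Per base of transcript, where genes can be ordered, depth scaled to the library total was highest with control shRNA on Clta (95.1), then on Picalm (52.5), Ap2a1 (36.0), Cltb (25.6) and Itsn1 (18.4), and from 9.79 for Epn1 down to 4.52 for Dnm2 on the other 5. Whether a gene had fewer RNA copies per cell or fewer cells that express it cannot be told apart in such bulk samples. Log2 ratios of ppm, with 0.1 ppm added, lay between -0.47 for Dnm2 and 0.50 for Dnm1 in 9 of the genes and reached 1.29 for Snap91, with a median of -0.20 against 0.06 over 10311 genes. Snap91 was thus the 1 member higher by 1.5-fold or more, against 19.4% of all genes, and no member was lower by 1.5-fold, against 12% of all genes.

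The Snap91 value depended on how reads were divided among transcripts. Its RefSeq transcript held 10.9% of the coverage of its assembled locus with control shRNA and 27.3% after knockdown. The whole locus, which includes another gene symbol, had a log2 ratio of -0.03, and the junctions of its 30 constitutive-class exons had 12974 and 10779 reads, a ratio of 1.06 after scaling, or 0.09 on the log2 scale. These other measures were added after the values were seen. By constitutive junction reads, Cltb (24.1 and 39.5 per 1000000 of such reads, log2 0.71) and Dnm1 (62.7 and 102, log2 0.70) were 1.5-fold or more higher, against 15.3% of 10240 genes, and no member was lower, against 1.31%. The median of the members was 0.14 on this scale and that of all genes 0.16, so the genes as a whole were shifted upward on it and the median member lay just below that shift. Cltb turned from -0.22 by RefSeq transcripts to 0.71 by junctions, and Ap2a1 from -0.29 to 0.36, and Epn1 from -0.35 to 0.31, so no direction is given for their levels. Dnm1 (0.50, 0.64 and 0.70) and Dnm2 (-0.47, -0.54 and -0.50) kept their sign by RefSeq transcripts, whole locus and junctions.

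**Figure D4:**
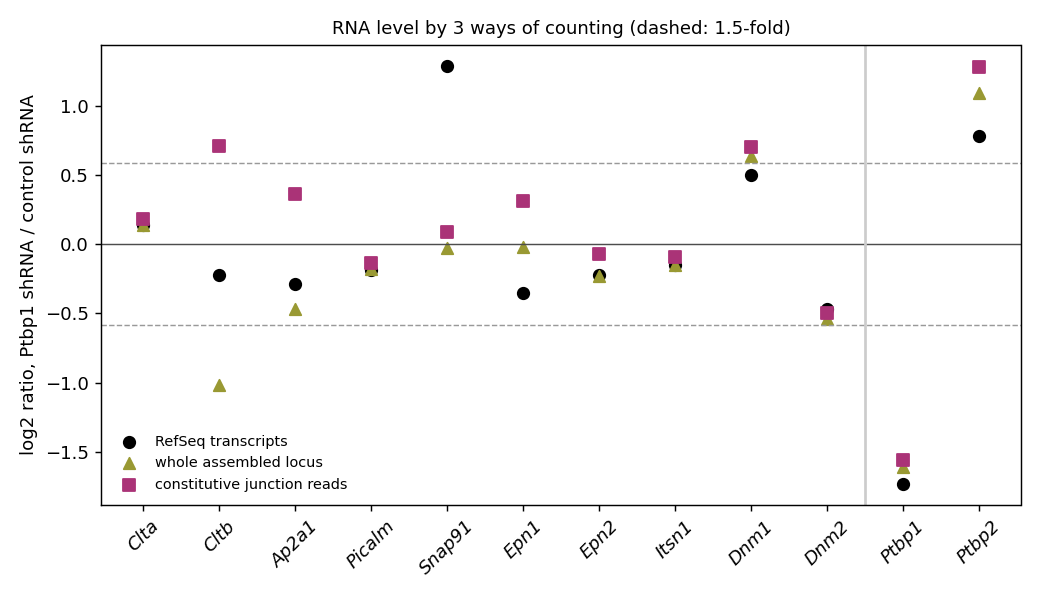
Log2 ratio of RNA level, Ptbp1 shRNA library over control shRNA library, for the 10 genes and for Ptbp1 and Ptbp2, by RefSeq transcripts, by the whole assembled locus and by reads on constitutive junctions; dashed lines mark 1.5-fold. Dnm1 lies above 0 and Dnm2 below 0 by all 3, while Snap91 is at 1.29 by RefSeq transcripts and at -0.03 and 0.09 by the others.

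The balance between related genes was read from depth per base, which does not grow with length. Dnm1 held 61.5% of the depth of Dnm1, Dnm2 and Dnm3 together with control shRNA and 74.0% after knockdown by RefSeq transcripts, and 49.9% and 67.4% by whole loci. Dnm2 held 37.6% and 21.4% by RefSeq transcripts and 47.2% and 25.7% by loci. Dnm3, which is outside the set, took the remainder, 0.833% and 4.54%. Itsn1 held 71.8% and 69.5% of the depth it shares with Itsn2 by RefSeq transcripts, and 58.1% and 44.9% by loci. No share is given for Clta and Cltb, Ap2a1 or Epn1, since the level of Cltb, Ap2a1 or Epn1 turned with the measure. Snap91 held 8.86% and 21.4% of its depth with Picalm by RefSeq transcripts, but 45.2% and 46.9% by loci. Of the dynamin, intersectin and assembly protein balances, that of the dynamins was the one in which both measures moved the same way by over 10 points.

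Other genes of the pathway, 54 in a list drawn up with earlier results of these data known, were set beside the members. Of 830 events in 47 of them, 38 were higher by 5 points or more (4.58%) and 20 lower (2.41%), against the 2.72% and 2.68% of all events given above. Examples past 10 points follow. Cltc, the clathrin heavy chain, had a 21 nt exon at a PSI of 5.7 and 15.7. Ap2b1, the beta subunit of AP-2, had a 42 nt exon at 29.7 and 48.6. An 81 nt exon of Itsn2, the paralog of Itsn1, was at 0.1 and 37.2. Synj1, the lipid phosphatase that uncoats vesicles, had 24 nt exons at 1.7 and 25.9 and at 57.2 and 82.3. In the other direction, a 133 nt exon of Eps15l1, a scaffold of the coat's rim, was at 74.1 and 42.4. A 64 nt exon of Pacsin3 was at 98.1 and 64.3, but on only 22 and 30 trio reads, with 1 and 11 skipping reads. The 123 nt exon of Pacsin2, like Pacsin3 a membrane-bending protein, was at 93.5 and 78.4.

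By RefSeq transcripts, 14 of the 46 pathway genes with a mean of at least 1 ppm over both libraries were 1.5-fold or more higher (30.4%, against 19.4% of all genes) and 4 were lower (8.7%, against 12%), among them Necap2, Sgip1 and Eps15l1. The 14 hold Dnm3, Snx9 and Ston1, which passed the filter through the knockdown library, so the share of 30.4% is not read as a result. By constitutive junction reads, 7 of 47 were higher (14.9%, near the 15.3% of all genes) and none lower. Only 5 were higher by both: Aak1, a kinase of the AP-2 complex (log2 1.45 and 1.07), Dnm3 (2.37 and 0.85), Dnajc6, the neuronal auxilin (0.64 and 0.98), Fcho1, an early membrane-bending factor (0.61 and 0.75), and Pacsin3 (1.56 and 0.60). Dnm3 itself was at 0.753 and 4.31 ppm. Snx9 and Ston1 were listed at 0 with control shRNA by RefSeq transcripts, although their constitutive junctions had log2 ratios of -0.17 and 0.53, and the 14 also included Fnbp1, Pacsin1, Pacsin2, Sh3gl3, Snx18 and Snx33. Synj2 and Ston2 were higher by junctions alone.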

How the data were processed

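RNA-seq of N2A cells was analysed from 1 control and 1 Ptbp1 knockdown library, read as paired ends of 100 bases by a strand-specific protocol. The labels name CASAVA, TopHat, Cufflinks and mm9, with versions not given in the sources used here. The authors ran SpliceTrap and deposited, per exon trio, inclusion ratios as a fraction before and after correction, the count of reads on each junction, and coverage in reads per 100 nucleotides. From Cufflinks the authors deposited FPKM and coverage per isoform and, in the assembled transcripts, a score. PSI was the corrected fraction times 100, and trio reads were coverage times summed exon sizes over 100. The trio with the most reads was used per exon and class. Junction PSI was the mean inclusion junction over itself plus the skipping junction. RefSeq identifiers were matched to symbols by a GRCm38 table (97.5% matched), and exons to NCBIM37. Gene levels were coverage times length over RefSeq transcripts, per 1000000 of all transcripts (ppm) (RefSeq held 60.4% and 58.2%). The members, lists and settings were chosen with earlier results of these data known. Named were all members, Ptbp1 and Ptbp2, member events with PSI of 5 to 95 or a difference of 5 points, those nearest to 20 reads, and pathway genes past 1.5-fold or 10 points, of which examples are given, and some genes are not reported here. The Itsn1 15 nt, Picalm 150 nt and Ap2a1 53 nt events were named after their values were seen. The counting was tested on simulated data. Scripts ran in Python 3.11.15 (pandas 2.3.3, NumPy 2.4.6, matplotlib 3.10.9).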

Additional observations from a re-analysis of the deposited data

How the results depend on the processing

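Of 15 events higher and 5 lower, the counts were 16 and 5 before correction, 15 and 5 with a minimum of 10 or 50 reads or with the mean over trios, and 10 and 3 at 10 points. With the cassette class alone they were 8 and 2, of fewer events. With junction PSI they were 8 and 5, with the larger inclusion junction 9 and 3, and with events that had a skipping read 12 and 5. The median delta PSI was 0 in all of these except 0.70 in the cassette class. Delta PSI of single events moved beyond the counting interval in 8 of 27 by junction PSI, and the cause was not tested. The count of 1 member gene higher and 0 lower held under 7 alternatives (scaling to RefSeq transcripts or the median gene, coverage, FPKM, a pseudocount of 1 ppm, no filter and a 2-fold threshold). By whole loci 1 was higher (Dnm1, in place of Snap91) and 1 lower (Cltb, whose control locus holds another gene), and Snap91 turned to -0.03. By constitutive junctions 2 were higher, and the median log2 ratio turned from -0.20 to 0.14. Pathway genes went from 14 higher and 4 lower to 7 and 0 by junctions. The larger junction, skipping-read, locus and junction-level settings were chosen after seeing the data. Depth limits the short exons, whose flanks leave little room for a read, and the 3′ events of Dnm1. No paired analysis was possible because each group has 1 library.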
